A study of Mus musculus with 6 samples.

Results

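The endoplasmic reticulum (ER) unfolded protein response was followed through 10 genes: Hspa5, Hsp90b1, Hyou1, Dnajb9, Sdf2l1, Pdia4, Creld2, Manf, Herpud1 and Xbp1. They were taken by name from a table of 55291 genes, all 10 were found, and all 10 were among the 14290 genes that passed the filter on low counts and were tested. The data are polyA RNA-seq of wild-type (WT) mouse embryonic fibroblasts (MEFs), cells grown out of the mouse embryo. Of the 6 libraries, 2 came from cells given vehicle, 2 from cells given MASM7, a small molecule described as an activator of the mitofusins, and 2 from cells given MFI8, described as an inhibitor of mitofusin-driven mitochondrial fusion. MASM7 was given at 1 µM and MFI8 at 20 µM, each for 6 h. These doses and times were taken from the study's figure legends, since the labels name only the compound. How long the vehicle libraries were treated is not given in the sources used here. Because the doses differed, a difference between the compounds and a difference between their concentrations cannot be told apart.

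Proteins bound for secretion or for membranes fold inside the ER, where the chaperone BiP, encoded by Hspa5, binds unfolded chains. When unfolded protein builds up, BiP leaves the sensors IRE1 (Ern1), PERK (Eif2ak3) and ATF6 (Atf6). IRE1 splices the mRNA of Xbp1 into the form that encodes an active transcription factor, PERK phosphorylates eIF2α and so favours translation of ATF4, and ATF6 is cut in the Golgi to release another transcription factor. XBP1 and ATF6 raise the transcription of ER chaperones, folding enzymes and degradation factors, which is why the 10 genes are standard reporters of this response. The PERK branch shares its targets with the integrated stress response, which other eIF2α kinases can start without any fault in the ER. In fibroblasts, which secrete large amounts of collagen and fibronectin, many of these chaperones are already abundant without added stress.

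ATF6 and XBP1 act through a short promoter motif, the ER stress element, which reads CCAAT, then any 9 bases, then CCACG, on either strand. A shorter version, ER stress element II, reads ATTGG, any 1 base, then CCACG. RefSeq promoter windows (build GRCm38.p6, 250 bases before to 50 bases after the start site) were matched for 8 of the 10 genes, with none for Manf and Hyou1. The first motif was present in 3 of the 8 windows and the second in 1 of the 8. Of all 32851 windows, 0.119% held the first and 0.0365% the second. The stretches that hold them are shown because motifs of this kind are the textbook route from the ER sensors to these genes. Each is read 5′ to 3′ along the strand of its gene, with the motif in capitals.

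Hspa5, chr2:34772020-34772048, plus strand: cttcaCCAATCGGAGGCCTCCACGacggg
Hsp90b1 distal, chr10:86705618-86705676, minus strand: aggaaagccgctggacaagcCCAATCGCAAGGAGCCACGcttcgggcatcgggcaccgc
Hsp90b1 proximal, chr10:86705513-86705571, minus strand: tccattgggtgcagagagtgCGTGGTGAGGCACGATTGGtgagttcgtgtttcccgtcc
Creld2, chr15:88819500-88819558, plus strand: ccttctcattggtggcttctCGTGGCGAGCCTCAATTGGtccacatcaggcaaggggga
Herpud1, chr8:94386357-94386407, plus strand: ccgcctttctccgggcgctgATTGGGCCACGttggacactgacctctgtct

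The motif of Hspa5 ended 46 bases before its RefSeq start site, and that of Herpud1 ended 41 bases before its own. The GENCODE start of Hspa5 lies further upstream, so in that annotation the motif falls inside the gene. The Hsp90b1 window held 2 copies, 193 and 88 bases before the start, the nearer one on the opposite strand. The Creld2 copy, also on the opposite strand, lay 107 bases before the start. The windows of Dnajb9, Sdf2l1, Pdia4 and Xbp1 held neither motif in these letters. The Dnajb9 window lies wholly inside the GENCODE gene, so the sequence before its GENCODE start was not searched. The Pdia4 window stopped short of the GENCODE start of that gene. A match is a description of the letters and not a measurement of binding.

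Raw library totals were between 22791792 and 30677751 counts, with both MASM7 libraries at 29881032 or more. Mitochondrially encoded RNA took 1.37% to 1.82% of the counts. Of the markers of the labelled cell type, Vim was at 1966 to 2531 TPM (transcript level per length, scaled to one total in every library), Col1a1 at 1106 to 1435 TPM and Fn1 at 342 to 436 TPM. However, Thy1 reached at most 0.751 TPM and Lum at most 0.194 TPM, so 2 common fibroblast markers were almost absent. Of 16 markers of other cell types, 12 were too low to be tested, with Adgre1, Kdr, Sox10, Myod1 and Myog at 0 in all libraries. Nes at 211 to 246 TPM, Tubb3 at 47.1 to 68.4 TPM and Cd68 at 8.91 to 11.9 TPM were the exceptions, beside Krt8, which was tested at no more than 0.721 TPM. The series' design text calls the 2 libraries of a group independent biological replicates, without saying what was kept separate, and the p-values below rest on very few samples. An exact permutation test of 2 against 2 cannot go below p = 0.33.

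The 10 genes spanned a wide range of levels. Per length, Hsp90b1 stood at 1124 ± 87.7 TPM and Hspa5 at 1085 ± 78.8 TPM with vehicle (mean ± SD, n = 2), ranks 89 and 95 among the 14290 genes. Together with Pdia4 at 301 ± 23.3 TPM and Creld2 at 214 ± 2.65 TPM they made up most of the summed level of the set, Hsp90b1 alone taking 35.4% of it. Hyou1 at 159 ± 5.41 TPM and Manf at 114 ± 6.39 TPM came next. Herpud1 at 68.3 ± 15.7 TPM, Xbp1 at 48.5 ± 3.63 TPM, Sdf2l1 at 43.8 ± 0.561 TPM and Dnajb9 at 13.9 ± 0.554 TPM closed the order. Only 2 pairs of neighbours in this order were not separated in all 6 libraries. Hsp90b1 was above Hspa5 in 2 of the 6, and Xbp1 was above Sdf2l1 in 4 of the 6.

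**Figure D1:**
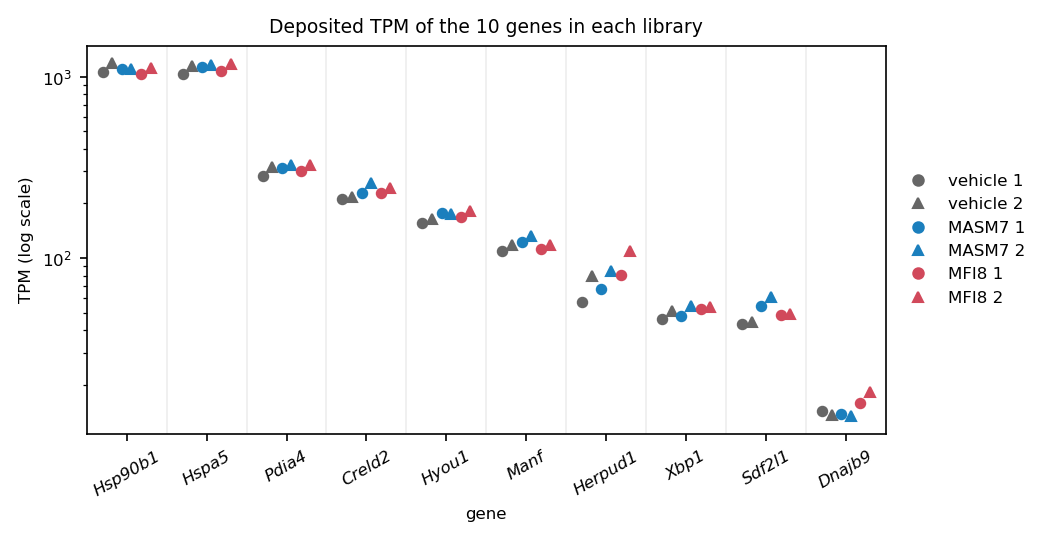
Levels of the 10 genes in TPM on a log axis, 1 point per library, coloured by treatment. Hsp90b1 and Hspa5 lie between 1029 and 1186 TPM and Dnajb9 between 13.4 and 18.2 TPM, while the points of Hsp90b1 and Hspa5, and those of Xbp1 and Sdf2l1, overlap.

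The levels differed little between treatments. The highest library exceeded the lowest by 1.13 times for Hspa5 and by 1.16 times for Hsp90b1, and the widest span was 1.86 times, for Herpud1. No gene in the whole table passed an adjusted p of 0.05 in edgeR's quasi-likelihood test in any of the 3 comparisons, so the share of all genes called was 0% in each, and none of the 10 could be called. At the same threshold DESeq2 called 48 genes for MFI8 against vehicle, 2 for MASM7 against vehicle and 29 between the compounds, and 0 of the 10 in each. With the replicate number as a block, edgeR called 720, 554 and 439 of the 14290 genes and 1, 4 and 2 of the 10. No label ties same-numbered libraries to a shared culture or day, so that fit is an alternative, described in the last section. In what follows, levels in single libraries are given in CPM, counts scaled to library size. An unadjusted p and whether the 2 libraries of one group lay wholly above or below the 2 of the other are given as descriptions, each beside the share of all 14290 genes that did the same. The comparisons of MASM7 and of MFI8 with vehicle share the vehicle libraries.

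With MASM7 most of the 10 genes had slightly positive values against vehicle. Their median difference was 0.13 on the log2 scale, beside 0.001 over all genes tested, with 8 of the 10 above 0 and 2 below. At an unadjusted p under 0.05 by edgeR, 4 of the 10 were higher (Sdf2l1, Manf, Hyou1 and Creld2) and 0 lower, where 5.32% of all genes were higher and 4.88% lower. DESeq2 also gave 4 of the 10 at that unadjusted level, beside 2.64% of the 26760 genes it tested, both directions together. Both MASM7 libraries exceeded both vehicle libraries for 6 of the 10, against 21.2% of all genes, and were below for 0 of the 10, against 21.6%. On library size alone or on the deposited TPM this count was 4 of the 10.

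With MFI8 the median difference from vehicle over the set was 0.10 (log2), beside 0.003 over all genes tested, again with 8 above 0 and 2 below. At an unadjusted p under 0.05, 2 of the 10 were higher in edgeR (Herpud1 and Dnajb9) and 0 lower, where 5.21% of all genes were higher and 4.65% lower. DESeq2 gave 0 of the 10 at that level, beside 2.86% of the genes it tested. Both MFI8 libraries lay above both vehicle libraries for 5 of the 10, against 20.9% of all genes, and below for 0 of the 10, against 19.3%. With MFI8 the mitochondrially encoded share of counts was 1.37% and 1.43%, beside 1.66% and 1.82% with vehicle. The 10 fibroblast markers tested had a median log2 fold change of -0.24, with 9 below 0 and 0 at an unadjusted p under 0.05, and the 11 listed summed to 5467 and 6654 TPM with MFI8 beside 5624 and 7013 TPM with vehicle. Of the markers of other cell types, 4 could be tested. Their median was 0.25 with MFI8 and 0.23 with MASM7, with 3 of the 4 higher in both libraries of the compound than in both of vehicle in each comparison. The neural list summed to 289 and 307 TPM with MFI8 and to 279 and 289 TPM with MASM7, beside 261 and 262 TPM with vehicle. The fibroblast markers had a median of 0.02 with MASM7, with 6 above 0 and 4 below. The part of any of these in the values of the 10 genes was not tested.

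Set directly against each other, the compounds differed by a median of -0.07 over the 10 genes (MFI8 minus MASM7, log2 scale), with 3 higher with MFI8 and 7 lower. At an unadjusted p under 0.05, Dnajb9 was higher with MFI8, where 4.23% of all genes were, and Manf and Sdf2l1 were lower, where 2.95% of all genes were. DESeq2 gave 1 of the 10 at that level, beside 1.9% of the genes it tested. The libraries did not overlap for 1 gene higher with MFI8 and for 3 lower (Manf, Sdf2l1 and Hsp90b1), beside 19.6% of all genes in either direction. No difference between the compounds passed adjustment in the reported fit (lowest adjusted p among the 10, 0.582 for Manf in edgeR).

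**Figure D2:**
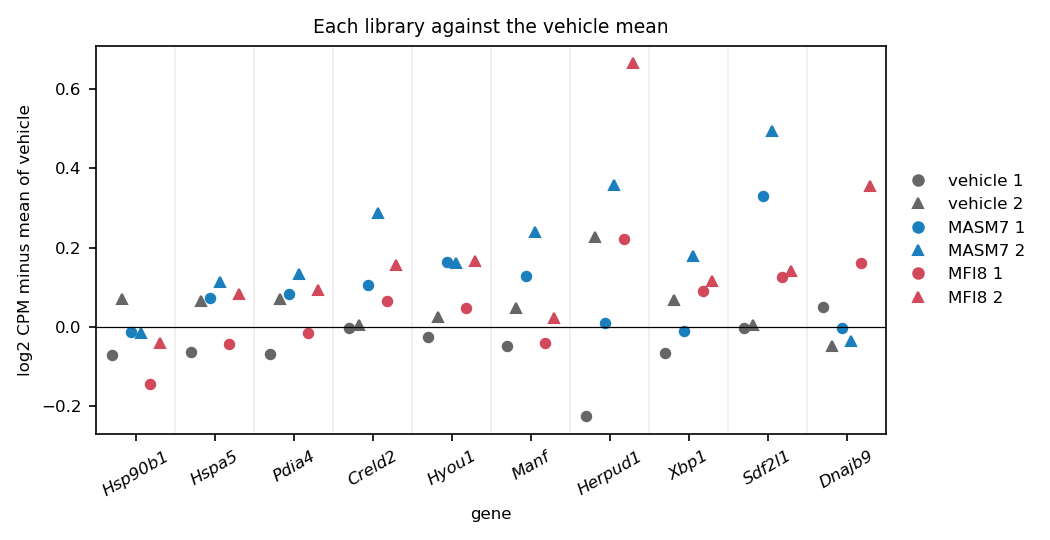
Centred log2 CPM (counts scaled to library size) of the 10 genes, 1 point per library, each gene set to 0 at the mean of its vehicle libraries. The spread between vehicle libraries is widest for Herpud1, the MASM7 points of Sdf2l1 stand clear above the rest, and only Dnajb9 has both MFI8 points clear above all 4 others.

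Among the chaperones proper, Hspa5 (gene ENSMUSG00000026864.13, chr2:34771970-34777547, plus strand, GENCODE positions on GRCm38 as for all 10 genes) encodes BiP, the most widely used marker of ER stress. It stood at 1239.5 and 1356 CPM with vehicle, 1363 and 1402 CPM with MASM7, and 1257 and 1373 CPM with MFI8. The MASM7 libraries lay just above the higher vehicle library, and the MFI8 libraries spanned the same range as vehicle. The log2 fold change was 0.09 with MASM7 (SE 0.0609, edgeR adjusted p = 0.602) and 0.02 with MFI8 (SE 0.0609, adjusted p = 0.94). The 95% interval for MFI8 ran from -0.12 to 0.15 and that for MASM7 from -0.04 to 0.23.

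Hsp90b1 (chr10:86690209-86705509, minus strand) encodes GRP94, the HSP90 of the ER lumen, and carries a pair of the motifs shown above. Its vehicle libraries were at 1219 and 1345 CPM, its MASM7 libraries at 1269 and 1267 CPM, and its MFI8 libraries at 1157 and 1244 CPM. It was the only member with a fitted value below 0 for both compounds, -0.02 with MASM7 (SE 0.0592, edgeR adjusted p = 0.944), which turned to 0.07 once GC content and transcript length were offset, and -0.09 with MFI8 (SE 0.0593, adjusted p = 0.621). With 1 library left out, Hsp90b1 with MFI8 ran from -0.16 to -0.02. Its exons share 415 bases with 1810014B01Rik on the opposite strand, and whether the counting used strand is not given in the sources used here.

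Hyou1 (chr9:44379490-44392369) encodes GRP170, a large HSP70 relative that acts on BiP as a nucleotide exchange factor. Its MASM7 libraries, at 365 and 364 CPM, both exceeded the vehicle libraries at 320.0 and 331 CPM, and the MFI8 libraries were at 336 and 365 CPM. Groups did not overlap for either compound against vehicle. The log2 fold change was 0.16 with MASM7 (SE 0.0551, edgeR adjusted p = 0.473) and 0.11 with MFI8 (SE 0.0551, adjusted p = 0.552). With 1 library left out the MFI8 value ran from 0.05 to 0.17.

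The BiP co-factors Dnajb9 and Sdf2l1 were the least abundant members with vehicle, and each had its highest libraries with a different compound. Dnajb9 (chr12:44205559-44210326, minus strand) encodes ERdj4, a J-domain protein that delivers clients to BiP and binds IRE1. It stood at 10.4 and 9.70 CPM with vehicle, 10.01 and 9.80 CPM with MASM7, and 11.2 and 12.9 CPM with MFI8, from 237 to 397 raw counts per library. Both MFI8 libraries were above the other 4, by 0.27 on the log2 scale against vehicle (SE 0.115, edgeR adjusted p = 0.485) and by 0.29 against MASM7 (SE 0.113, adjusted p = 0.649). With MASM7 the difference from vehicle was -0.02 (95% interval -0.28 to 0.24), or 0.07 once GC content and transcript length were offset.

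Sdf2l1 (chr16:17130138-17132383, minus strand) encodes an ER-resident protein that works with J-domain co-chaperones to keep clients soluble. It was at 13.7 and 13.8 CPM with vehicle, 17.3 and 19.4 CPM with MASM7, and 15.0 and 15.1 CPM with MFI8. The 3 groups did not overlap, with MASM7 highest. The difference from vehicle was 0.42 with MASM7 (33.6% higher, SE 0.0965, edgeR adjusted p = 0.466), the smallest p of the 10 and number 34 of the 14290 genes. With MFI8 it was 0.13 (SE 0.0986, adjusted p = 0.679), and the compounds differed by -0.28 (MFI8 minus MASM7, SE 0.0949, adjusted p = 0.588).

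Of the oxidative folding enzymes, Pdia4 (chr6:47796141-47813430, minus strand) encodes the disulfide isomerase ERp72. It was at 194 and 214 CPM with vehicle, 216 and 223 CPM with MASM7, and 202 and 218 CPM with MFI8. The MASM7 libraries cleared the higher vehicle library by a narrow margin and the MFI8 libraries overlapped vehicle, with differences of 0.11 (SE 0.0632, edgeR adjusted p = 0.573) and 0.04 (SE 0.0634, adjusted p = 0.882), log2. Creld2 (chr15:88819646-88826683) encodes an ER protein with thiol-disulfide activity. It stood at 82.6 and 83.0 CPM with vehicle, 89.1 and 101 CPM with MASM7, and 86.7 and 92.2 CPM with MFI8. Both compounds gave libraries above vehicle, by 0.20 with MASM7 (SE 0.0695, adjusted p = 0.473) and by 0.11 with MFI8 (SE 0.0698, adjusted p = 0.621).

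Manf (chr9:106838312-106891979, minus strand) encodes a small ER protein that binds BiP and is secreted when ER calcium falls. Its libraries were at 110 and 117 CPM with vehicle, 124 and 134 CPM with MASM7, and 110 and 115 CPM with MFI8. Only the MASM7 libraries stood apart from vehicle. The difference was 0.18 with MASM7 (SE 0.0619, edgeR adjusted p = 0.473), -0.01 with MFI8 (95% interval -0.15 to 0.13, and 0.001 on library size alone), and -0.19 between the compounds (MFI8 minus MASM7, SE 0.0618, adjusted p = 0.582). Exons of Manf share 146 bases with Dcaf1 and 166 bases with 4930524O07Rik, both on the opposite strand. How reads from shared bases were assigned is not given in the sources used here.

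Herpud1 (chr8:94386438-94395377) encodes a membrane protein of the ER-associated degradation machinery and answers to both ATF6 and the PERK branch. It had the largest difference of the 10 with MFI8 and also the largest spread between replicates. The libraries were at 38.0 and 52.1 CPM with vehicle, 44.8 and 57.0 CPM with MASM7, and 51.9 and 70.6 CPM with MFI8. The lower MFI8 library was just below the higher vehicle library, so the groups overlapped. Against the vehicle library of the same number, the MFI8 libraries were higher by 0.45 and 0.44 (log2) and the MASM7 libraries by 0.24 and 0.13. No label says that same-numbered libraries belong together. The difference was 0.45 with MFI8 (36.3% higher, SE 0.173, edgeR adjusted p = 0.448) and 0.17 with MASM7 (SE 0.174, adjusted p = 0.735).

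Xbp1 (chr11:5520659-5525893) encodes the transcription factor whose mRNA IRE1 splices. Counts per gene do not separate the spliced from the unspliced form, so these values give total Xbp1 mRNA and not IRE1 activity. It was at 42.4 and 46.6 CPM with vehicle, 44.1 and 50.4 CPM with MASM7, and 47.3 and 48.2 CPM with MFI8. The MFI8 libraries were marginally above vehicle and the MASM7 libraries overlapped it. The log2 fold change was 0.10 with MFI8 (SE 0.081, edgeR adjusted p = 0.707) and 0.09 with MASM7 (SE 0.0806, adjusted p = 0.72). In bulk RNA, fewer cells expressing a gene and less of its RNA per cell cannot be told apart.

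**Figure D3:**
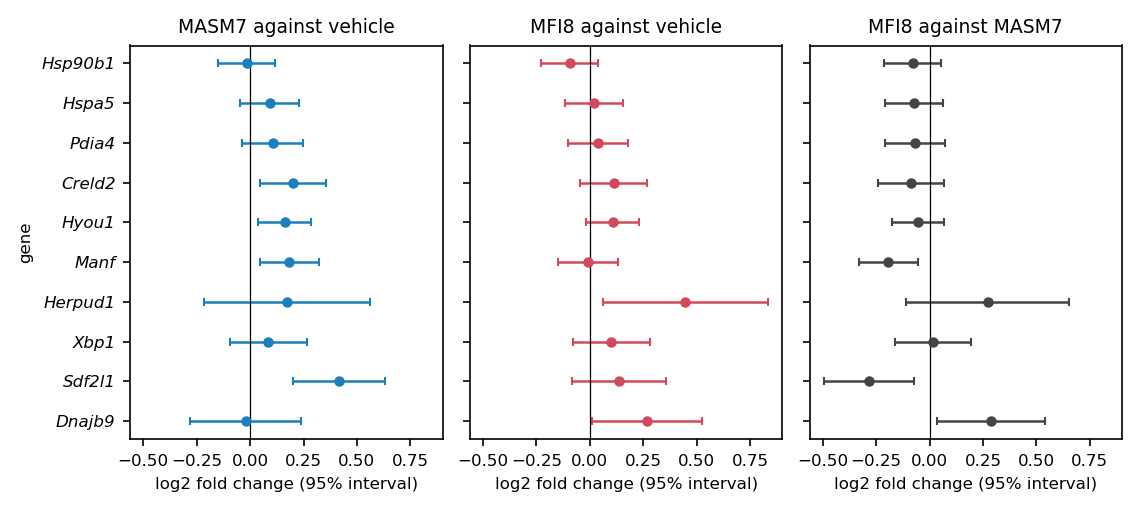
Fitted log2 fold change of each gene with its 95% interval for the 3 comparisons. With MASM7 the intervals of Sdf2l1, Creld2, Manf and Hyou1 lie above 0, with MFI8 those of Herpud1 and Dnajb9 do, and no interval lies wholly below 0 in either comparison with vehicle.

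These counts changed when single libraries were left out. Library 2 was above library 1 for 9 (vehicle), 7 (MASM7) and 10 (MFI8) of the 10 genes, beside 49.9%, 51.5% and 50.8% of all genes. The median gap of the 10 was 0.11, 0.08 and 0.11 on the log2 scale. Leaving out 1 library also unbalances the replicate numbers, and the part of this gap in the values below was not tested. For MASM7 against vehicle the median of the 10 genes was 0.03 without vehicle replicate 1 and 0.18 without vehicle replicate 2. Once GC content and transcript length were offset it was 0.12, with 10 genes above 0 and 0 below. In that fit 5 members had an unadjusted p under 0.05 by edgeR, beside 5.34% of all genes in either direction. The members at an unadjusted p under 0.05 numbered 1 without vehicle replicate 1, 7 without vehicle replicate 2 and 2 without MASM7 replicate 2, where 12.8%, 5.58% and 3.86% of all genes in either direction did the same. For MFI8 against vehicle the median was 0.06 without MFI8 replicate 2, with 6 genes above 0 and 4 below, 0.13 without MFI8 replicate 1, and 0.07 once GC content and transcript length were offset. There the members at an unadjusted p under 0.05 numbered 0 without MFI8 replicate 2 and 3 without MFI8 replicate 1, beside 5.95% and 8.61% of all genes. They numbered 1 when either vehicle library or either MASM7 library was left out, beside 7.51% to 10.6% of all genes. Between the compounds the median was -0.01 without MFI8 replicate 1 and -0.13 without MFI8 replicate 2, and 0 members reached that p without MASM7 replicate 2, beside 4.46% of all genes. The value of Herpud1 with MFI8 was 0.20 without MFI8 replicate 2 and 0.70 without vehicle replicate 2, and that of Dnajb9 was 0.16 without MFI8 replicate 2 and 0.36 without MFI8 replicate 1. With MASM7, Creld2 was at 0.11 without MASM7 replicate 2 and 0.29 without MASM7 replicate 1, and Hspa5 at 0.03 without vehicle replicate 1 and 0.16 without vehicle replicate 2.

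The 3 sensors, which sit upstream of the 10 genes, were also followed. Ern1 (IRE1) was at 39.1 and 44.4 CPM with vehicle, 41.7 and 39.9 CPM with MASM7, and 46.9 and 45.5 CPM with MFI8. Its log2 difference with MFI8 was 0.14 (edgeR adjusted p = 0.564), and ran from 0.06 to 0.24 with 1 library left out. Atf6 differed by 0.13 with MFI8 (adjusted p = 0.557) and by 0.03 with MASM7. Eif2ak3 (PERK) differed by 0.04 with MFI8 (adjusted p = 0.915) and by -0.06 with MASM7. Of the 6 genes listed as sensors or their processing proteases, only Atf6b, the ATF6 paralogue, reached an unadjusted p under 0.05 against vehicle, at 0.25 with MASM7 (edgeR adjusted p = 0.466), beside 5.32% of all genes higher at that level, and its value was 0.11 once GC content and transcript length were offset. The median of the 6 was 0.08 with MFI8 and -0.05 with MASM7.

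Outside the 10 genes, the rest of the ER folding machinery had medians closer to 0 than the members did. Over 26 other chaperones, lectins and folding enzymes of the ER the median log2 fold change was -0.02 with MFI8 and 0.01 with MASM7. Shares of all genes at an unadjusted p under 0.05 were 5.21% higher and 4.65% lower with MFI8, and 5.32% and 4.88% with MASM7, and the counts below are read against these. At that level 0 of the 26 were higher and 1 was lower with MFI8 (Pdia3, a disulfide isomerase for glycoproteins, -0.12), and 2 were higher and 1 lower with MASM7 (among the former Pdia6, another disulfide isomerase, 0.14). For 21 tested genes of ER-associated degradation the medians were 0.04 and -0.002, with 1 higher with MFI8 (Edem2, an ER mannosidase, 0.21) and 2 higher with MASM7 (Syvn1, the HRD1 ubiquitin ligase, 0.21, among them) against 1 lower (Fam8a1, an HRD1 partner, -0.31). For 27 genes of protein entry into and exit from the ER the medians were -0.05 and 0.003. With MFI8 9 were above 0 and 18 below. Both MFI8 libraries lay below both vehicle libraries for 12, against 19.3% of all genes, and above for 4, against 20.9%. At an unadjusted p under 0.05, 3 of the 27 were lower with MFI8. These were Ssr1 and Ssr3 of the translocon-associated complex at -0.13 and -0.14, and the COPII GTPase Sar1b at -0.22. With 1 library left out Sar1b ran from -0.33 to -0.12. With MASM7 3 were higher, among them Srprb of the signal recognition particle receptor at 0.18. The 6 mRNAs known to be cut by IRE1 had medians of -0.13 with MFI8 and -0.03 with MASM7, with 0 at an unadjusted p under 0.05. Their MFI8 median was -0.01 without MFI8 replicate 2 and -0.23 without vehicle replicate 2. Their MASM7 median was 0.08 without vehicle replicate 1 and -0.14 without vehicle replicate 2. The lowest of the 6 with MFI8, Pdgfrb, is also among the fibroblast markers listed. In the reported fit 0 genes of these lists passed an adjusted p of 0.05.

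The genes that hold the promoter motif were also described as a group. Of all listed genes, 12 had one of the motifs in their window and 11 of these were tested, including Calr, Canx and Dnajc3 besides the members shown above. Their median log2 fold change was 0.003 with MFI8 and 0.07 with MASM7. At an unadjusted p under 0.05, 1 of the 11 was higher with MFI8 (Herpud1), beside 5.21% of all genes, and 3 were higher with MASM7 (Creld2, Syvn1 and Pdia6), beside 5.32%, with 0 lower in either comparison.

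The integrated stress response had larger values with MFI8 than the ER genes had. Among its 21 tested genes the median log2 fold change was 0.33 with MFI8, 13 were higher at an unadjusted p under 0.05 and 0 lower, where 5.21% and 4.65% of all genes were, and both MFI8 libraries exceeded both vehicle libraries for 16, against 20.9% of all genes. Ddit3, which encodes the pro-apoptotic factor CHOP, stood at 12.1 and 11.2 CPM with vehicle, 13.9 and 14.1 CPM with MASM7, and 17.5 and 21.3 CPM with MFI8 (0.74, edgeR adjusted p = 0.0924). Slc7a11, the cystine transporter, was at 11.7 and 12.8 CPM with vehicle, 13.6 and 12.4 CPM with MASM7, and 19.8 and 24.3 CPM with MFI8 (0.86, adjusted p = 0.0924). Atf3, a stress-inducible transcription factor, was at 2.24 and 3.06 CPM with vehicle, 2.47 and 3.65 CPM with MASM7, and 6.75 and 20.9 CPM with MFI8 (2.40, adjusted p = 0.186). MFI8 and vehicle did not overlap for these 3 genes, and their MFI8 libraries differed from each other most for Atf3, whose value was 1.34 without MFI8 replicate 2 and 2.97 without MFI8 replicate 1. Without MFI8 replicate 2 the median was 0.17 and 6 genes had an unadjusted p under 0.05, beside 5.95% of all genes. Without MFI8 replicate 1 the median was 0.45 and edgeR called 6 of the 21 at an adjusted p of 0.05, of 26 genes called among 15092. DESeq2 called 3 of the 21 at an adjusted p of 0.05, of 48 genes called among 26760.

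With MASM7 the same list had a median of 0.13, equal to that of the 10 ER genes at this rounding. It was 0.06 without MASM7 replicate 2 and 0.23 without MASM7 replicate 1. Of the 21 tested genes 20 were above 0 and 1 below. Both MASM7 libraries exceeded both vehicle libraries for 10, against 21.2% of all genes, and were below for 0, against 21.6%. At an unadjusted p under 0.05 by edgeR, 3 were higher and 0 lower, where 5.32% and 4.88% of all genes were. Among the 3 were Shmt2 (0.20) and Phgdh (0.21) of serine and one-carbon metabolism. Their lowest values over the other settings were 0.09 and 0.10. Cytosolic heat shock genes, which respond to misfolding outside the ER, had medians of 0.09 with MFI8 and -0.02 with MASM7. The MFI8 median was -0.06 without MFI8 replicate 2 and 0.20 without MFI8 replicate 1, and the MASM7 median was -0.10 without MASM7 replicate 2 and 0.06 without vehicle replicate 2. There the leading value, 1.94 for Hspa1a with MFI8, came from 2.31 and 15.1 CPM with MFI8 beside 1.67 and 2.94 CPM with vehicle, so the groups overlapped. Without MFI8 replicate 2 it was -0.01.

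**Figure D4:**
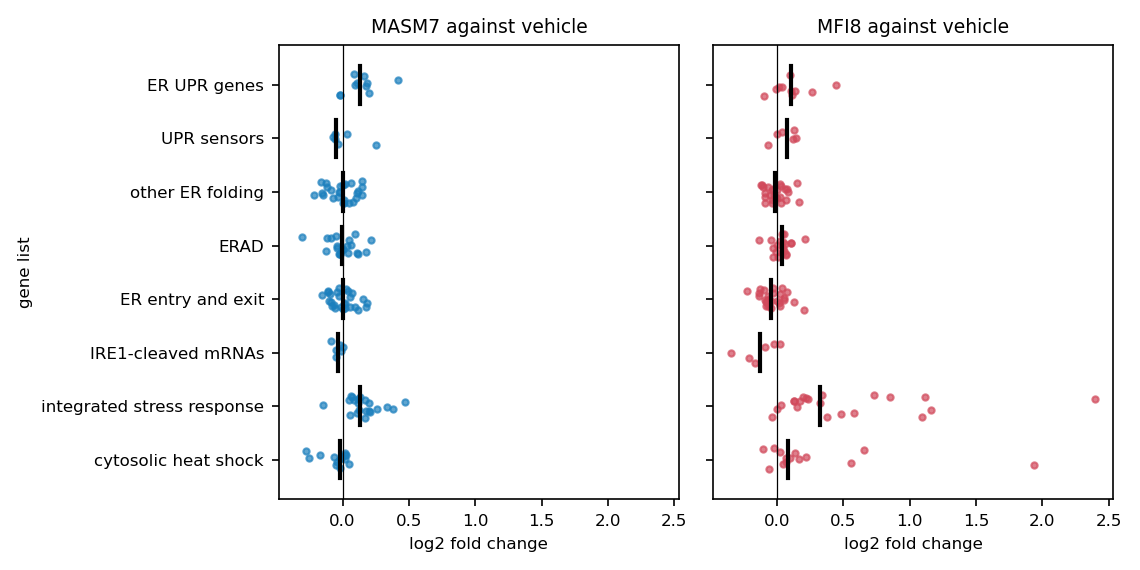
Log2 fold change of every tested gene in each list against vehicle, 1 point per gene, for MASM7 and MFI8, with a black bar at the median of each list. The 10 ER unfolded protein response genes lie between -0.09 and 0.45 with MFI8 and between -0.02 and 0.42 with MASM7, while the integrated stress response reaches 2.40 with MFI8 through Atf3 (1.34 without MFI8 replicate 2).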

How the data were processed

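Raw counts per gene, whole numbers, were deposited by the authors, who used Trimmomatic for trimming, STAR for alignment (GRCm38) and featureCounts for counting. The authors also deposited TPM, scaled by gene length and library total, and normalized counts, which were not used here. Versions of the trimming, alignment and counting tools, the annotation and the strand setting are not given in the sources used here. Raw counts of 14290 genes kept by filterByExpr were fitted in edgeR 4.0.16 (R 4.3.3) with TMM factors, 1 coefficient per group over all 6 libraries, and tested by the quasi-likelihood F test with Benjamini-Hochberg adjustment at 0.05. Standard errors (SE) were obtained as |log2 fold change| over the root of F. CPM used TMM factors, and centred log2 CPM added a prior count of 2. Levels between genes were compared only in TPM. DESeq2 1.42.0 and limma 3.58.1, on log2(TPM + 1), were alternatives. Tested on counts drawn with 200 genes changed 2-fold (MFI8 against vehicle, 14290 genes), edgeR found 84.5% and 3.43% of what it called was false. Smaller changes were not drawn, and the largest fitted change of a member was 1.36-fold (Herpud1, MFI8 against vehicle). These shares therefore do not describe how often changes of the members' size would be found. Whether the drawn counts spread between replicates as the real ones do was not tested. Gene positions, GC content and transcript lengths came from GENCODE vM21 (GRCm38), and promoter windows from RefSeq (GRCm38.p6).

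Libraries were grouped by the compound in their labels. Besides the 10 genes, the text names Ern1, Eif2ak3, Atf6 and, by rule, genes with the smallest p of each list: up to 3 for MFI8 and 2 for MASM7 against vehicle. The markers, the overlapping genes, and the genes that hold the promoter motif are further exceptions. The members and lists were chosen with earlier results of these data known.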

Additional observations from a re-analysis of the deposited data

How the results depend on the processing

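Over 17 other settings the 30 differences of the 10 genes gave 510 values, of which 22 reversed direction, none by more than 0.076 from 0 on the log2 scale, and 16 passed an adjusted p of 0.05 that the reported fit did not. Genes called for MFI8 against vehicle, MASM7 against vehicle and MFI8 against MASM7 numbered 256, 127 and 168 with every gene of at least 1 count in any library kept, and 48, 2 and 29 with DESeq2. With only the 2 groups compared they numbered 1 for MASM7 against vehicle and 2 between the compounds. They ranged from 0 to 26, 0 to 2 and 0 to 24 when 1 library was left out, and 0 of the 10 were called there. Keeping every gene called 1 of the 10 for MFI8 (Herpud1) and 1 for MASM7 (Sdf2l1). With the replicate number as a block, 720, 554 and 439 genes were called, and of the 10 genes 1 (Herpud1, 0.44, adjusted p = 1.5e-05 in edgeR), 4 (Hyou1, Sdf2l1, Creld2 and Manf) and 2 (Manf and Herpud1). Deviations from the group mean of same-numbered libraries correlated across genes at 0.188, 0.152 and 0.165 (0.508, 0.621 and 0.538 among the 7145 more highly expressed genes), which hints at a pairing, but with 2 numbers and no label of a shared culture or day the numbers were treated as names. Among the other lists the block called 14 integrated stress response, 3 heat shock and 2 IRE1-cleaved genes and Sar1b with MFI8, and 5 integrated stress response genes, Fam8a1, Syvn1, Srprb and Atf6b with MASM7. With the block and offsets for GC content and length (added after seeing the data) 596, 161 and 686 genes were called, and 1, 3 and 3 of the 10, besides Ssr1 with MFI8 and Pdia6, Fam8a1 and Srprb with MASM7 among the ER genes named. The median of the 10 for MASM7 ranged from 0.034 without vehicle replicate 1 to 0.183 without vehicle replicate 2. Reversals were Manf with MFI8 (0.0014 on library size alone, 0.0178 and 0.0179 with limma on log2(TPM + 1) and log2(TPM + 0.1)) and, with MASM7, Hsp90b1 (0.0038 with every gene kept, 0.0651 with the offsets and 0.0656 with offsets and block), Dnajb9 (0.0731 and 0.0749) and Mbtps2 (0.0395 and 0.0392). With 1 library left out, values with MFI8 ran from -0.0464 to 0.0857 for Hspa5, -0.0273 to 0.111 for Pdia4, -0.0541 to 0.0408 for Manf, -0.0095 to 0.0851 for Eif2ak3, -0.0074 to 2.70 for Hspa1a and -0.144 to 1.01 for Hspa1b. With MASM7 they ran from -0.0846 to 0.057 for Hsp90b1, -0.069 to 0.0296 for Dnajb9, -0.0328 to 0.422 for Herpud1, -0.0129 to 0.178 for Xbp1, -0.122 to 0.0621 for Ern1, -0.0505 to 0.112 for Atf6 and -0.187 to 0.106 for Bloc1s1. Between the compounds they ran from -0.117 to 0.0058 for Hyou1, -0.174 to 0.0065 for Creld2 and -0.076 to 0.114 for Xbp1. The cause of these shifts was not tested. The lone library left in a group was assumed to vary like the others.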
